A study of Mus musculus with 12 samples.

Results

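RNA sequencing of whole right hippocampi was used to follow 7 genes, the myocyte enhancer factor 2 genes Mef2a, Mef2c and Mef2d and the class IIa histone deacetylase genes Hdac4, Hdac5, Hdac7 and Hdac9, in APP/PS1 and wild-type (WT) mice. The 7 genes were taken by name from the 55573 rows of the deposited count table. All mice were C57BL/6J animals aged 4.5 months. APP/PS1 (APPSwe/Ps1dE9) mice carry a chimeric mouse/human amyloid precursor protein with the Swedish mutation and a human presenilin 1 that lacks exon 9, both driven by a prion promoter element, and WT animals carry neither transgene. There were 4 APP/PS1 and 2 WT animals of each sex, so each sex rested on 2 WT animals, and no other treatment was given in the labels. The comparisons asked how genotype changed these transcripts in each sex, and whether that change differed between the sexes.

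Mef2 proteins are DNA-binding transcription factors that switch on activity-dependent genes in neurons and restrain or refine synapse number. Class IIa deacetylases bind Mef2 proteins on DNA and bring in corepressors, which silences Mef2 target genes. Calcium-dependent kinases and salt-inducible kinases phosphorylate these deacetylases, 14-3-3 proteins then hold them in the cytoplasm, and Mef2 is released, while the phosphatase calcineurin dephosphorylates both partners. Mef2c is known from excitatory neurons, where it limits synapse number, and also from microglia, the resident macrophages of brain.

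Library totals ranged from 36714316 to 50643565 counts on genes. All 7 genes passed the expression filter, which asked for a log2 CPM (counts scaled to a common total) no lower than 1 in 3 or more libraries, as did 14008 genes in all, and Mef2b, the fourth gene of the Mef2 family, did not, with 0 to 13 counts per library. The 8 neuronal markers, which check for neuronal tissue but not for its region, summed to between 6882 and 7794 normalized CPM in every library. There were 3 libraries (APP/PS1 female 1, WT female 2 and APP/PS1 male 2) that stood apart with summed choroid plexus markers of 3925, 4100 and 6979 normalized CPM against 27.8 to 46.1 in the other 9. Results that rest on these 3 libraries are given with and without them. Fits without them also dropped the 2 RUV factors of unwanted variation used elsewhere, and left WT female 1 as the only WT female. The tissue was measured in bulk, so fewer cells of a type and less RNA per cell cannot be told apart.

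Mef2c is the member whose transcript moved most, and the DNA just upstream of its annotated starts is shown because several start sites feed the same count. RefSeq (GRCm38.p6) placed 3 windows of 250 bases upstream of Mef2c starts, on the plus strand, at chr13:83503784-83504033, chr13:83523406-83523655 and chr13:83573357-83573606. Hdac5 is added as the only member with a match to the MEF2 consensus, on the minus strand at chr11:102230173-102230422. Sequences read 5′ to 3′ along the transcribed strand and end at the base before the start. Capitals mark TATAAA on either strand in the Mef2c windows and the MEF2 consensus in the Hdac5 window.
Mef2c upstream window A: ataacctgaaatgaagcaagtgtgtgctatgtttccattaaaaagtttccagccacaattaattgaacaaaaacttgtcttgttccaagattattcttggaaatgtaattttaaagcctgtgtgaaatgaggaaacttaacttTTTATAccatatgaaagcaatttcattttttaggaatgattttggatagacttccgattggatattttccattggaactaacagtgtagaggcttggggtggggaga
Mef2c upstream window B: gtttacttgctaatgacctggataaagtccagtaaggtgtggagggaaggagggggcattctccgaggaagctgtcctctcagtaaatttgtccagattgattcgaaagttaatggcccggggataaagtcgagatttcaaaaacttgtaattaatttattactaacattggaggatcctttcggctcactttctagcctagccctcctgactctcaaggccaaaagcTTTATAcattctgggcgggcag
Mef2c upstream window C: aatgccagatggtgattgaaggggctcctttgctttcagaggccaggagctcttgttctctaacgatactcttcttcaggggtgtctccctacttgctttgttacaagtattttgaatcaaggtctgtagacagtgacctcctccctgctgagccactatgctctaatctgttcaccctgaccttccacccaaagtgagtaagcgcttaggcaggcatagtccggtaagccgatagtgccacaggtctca
Hdac5 upstream window: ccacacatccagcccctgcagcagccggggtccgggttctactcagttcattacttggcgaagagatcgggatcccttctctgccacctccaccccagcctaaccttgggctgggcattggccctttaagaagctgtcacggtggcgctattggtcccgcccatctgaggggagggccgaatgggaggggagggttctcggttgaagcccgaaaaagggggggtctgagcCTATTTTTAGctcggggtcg

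Windows A and B of Mef2c each held a single TATAAA match, with its first base at positions -107 and -22 counted from the start, and window C held none. Of all 32851 windows of this length (27025 genes), 12.4% held TATAAA on either strand. The Mef2c windows were 33.6%, 44.8% and 49.6% G and C, against a median of 52.4% over all windows. The match to the MEF2 consensus, which is the same on both strands, began at position -20 of the Hdac5 start, and 2.92% of all windows held one. None of the other 12 windows of the members held it, and of 16 windows of 9 neuronal Mef2 target genes 1 did, at Jun. These matches describe letters in a window and not sites that were shown to be bound.

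Levels between genes were compared as normalized CPM per kilobase of exon. Mef2d was highest at 36.7 ± 1.95 (SD over 12 libraries), followed by Mef2a at 15.1 ± 0.978, Hdac5 at 14.1 ± 0.882 and Mef2c at 12.8 ± 2.002, and then by Hdac4 at 3.93 ± 0.594, Hdac9 at 3.24 ± 0.264 and Hdac7 at 2.04 ± 0.299. The ranges of Mef2a (13.1 to 16.5), Hdac5 (11.95 to 15.4) and Mef2c (9.20 to 16.3) overlapped, as did those of Hdac4 (3.17 to 4.90) and Hdac9 (2.84 to 3.74), and no test was run between genes. Per-library levels spread most for Mef2c, with a coefficient of variation of 15.6%, Hdac4 with 15.1% and Hdac7 with 14.6%, and least for Mef2d with 5.32%. Exon lengths span all annotated isoforms, so an isoform shorter than the union is understated on this scale.

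**Figure D1:**
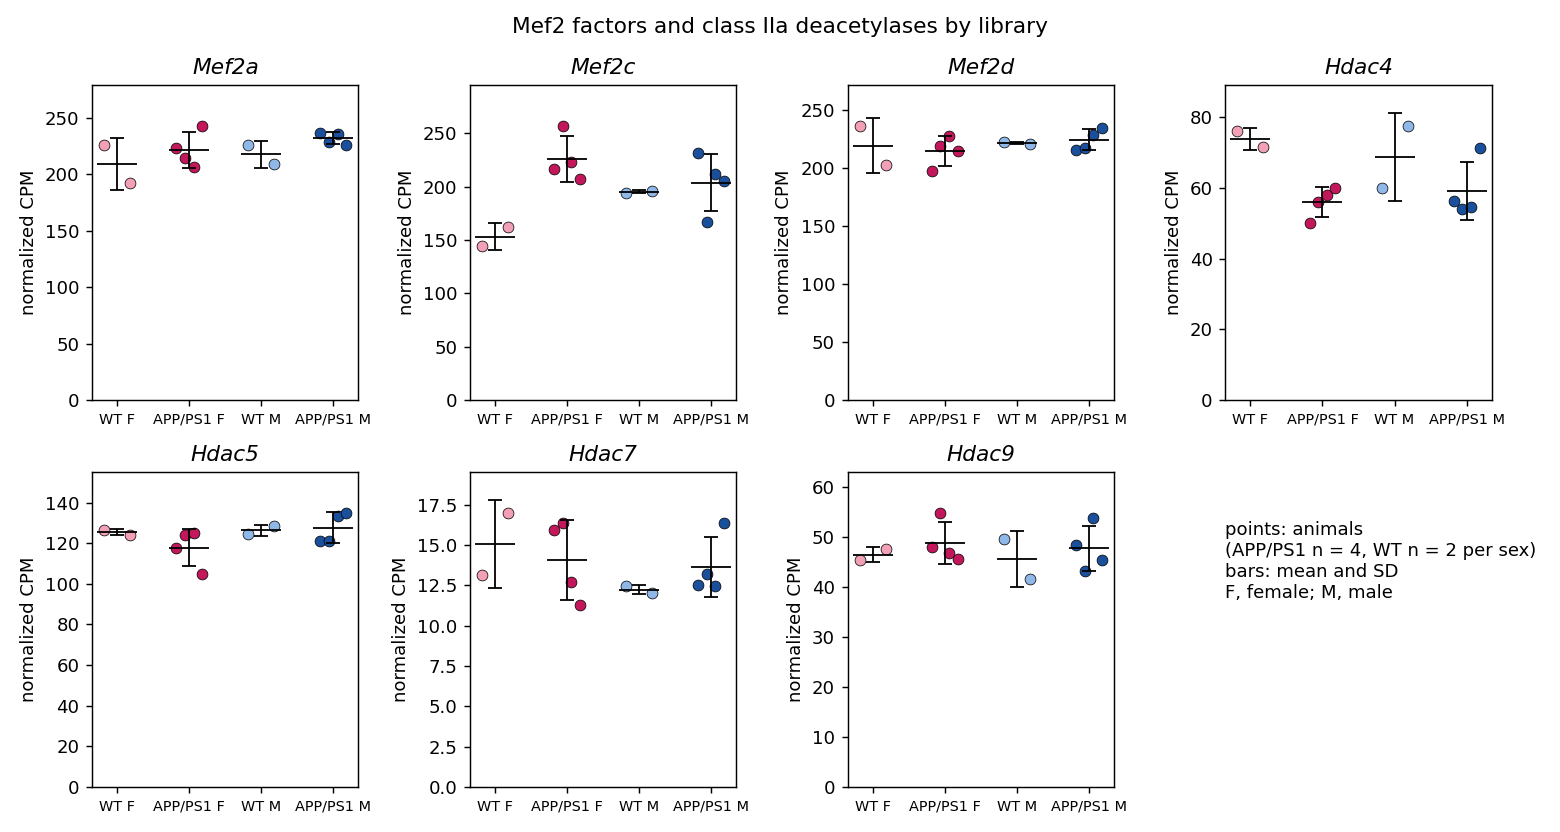
Normalized CPM (y axis, from 0) of the 7 genes in each animal of the 4 groups, with the mean and SD of 4 APP/PS1 or 2 WT animals per sex. Mef2c was between 207 and 257 in APP/PS1 females and at 144.5 and 161.9 in WT females, while Hdac4 was between 50.1 and 59.9 in APP/PS1 females and at 76.1 and 71.6 in WT females.

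Of the activators, Mef2c (ENSMUSG00000005583, GRCm38 chr13:83504034-83667080, plus strand, with 31 annotated transcripts and no exon shared with another gene) was higher in APP/PS1 females. Normalized CPM were 216.5, 256.8, 222.8 and 207.4 in APP/PS1 females 1 to 4 and 144.5 and 161.9 in WT females 1 and 2. Every APP/PS1 female was above both WT females. Mef2c rose in females by a log2 fold change of 0.56 ± 0.105 (SE; 1.48-fold, 95% interval 0.33 to 0.79 on the log2 scale), with an adjusted p of 0.0458 in edgeR's quasi-likelihood test with Benjamini-Hochberg adjustment. It ranked 56 of 14008 genes by p. Mef2c was the only member called in females at an adjusted p under 0.1, 1 of 7, where 0.778% of all genes tested were called and 0.728% were called higher.

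In males the same gene gave 231.5, 166.9, 212.0 and 204.9 normalized CPM in APP/PS1 animals 1 to 4 and 194.4 and 196.1 in WT animals. The WT males lay inside the range of the APP/PS1 males, whose lowest library was APP/PS1 male 2, one of the 3 rich in choroid plexus markers. The log2 fold change was 0.10 ± 0.101 (95% interval -0.12 to 0.32), and the adjusted p of the quasi-likelihood test was 0.998. It was 0.153 without the 3 libraries rich in choroid plexus markers and with no RUV factors. With all 12 animals and no RUV factors it was 0.062. It was 0.143 when APP/PS1 male 2 was left out and 0.032 when male 1 of that group was. With the sexes averaged Mef2c rose by 0.33 ± 0.072 on the log2 scale (1.26-fold), with an adjusted p of 0.05 in edgeR's test, and was again the only member called, where 1.85% of all genes were called and 1.7% called higher. With the sexes averaged 2 members, Mef2c and Hdac4, had an unadjusted p under 0.05, against 9.47% of all genes.

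The difference between the sexes was examined as the interaction of genotype and sex. For Mef2c it was 0.46 ± 0.146 on the log2 scale (95% interval 0.14 to 0.78), with an unadjusted p of 0.00838 and an adjusted p of 0.998 in the quasi-likelihood test, so the sex difference did not pass the correction over all genes. It ranked 64 of 14008 genes, 3.58% of all genes had an unadjusted interaction p under 0.05, and edgeR's quasi-likelihood test called 0 genes at an adjusted p under 0.1 (2, or 0.0143%, with its likelihood ratio test and 0 with DESeq2). Much of this contrast lay between the WT groups. WT females stood below WT males, by a log2 difference of -0.33 ± 0.125 (unadjusted p 0.0222, adjusted p 0.991), whereas APP/PS1 females and males overlapped, at 0.14 ± 0.081 (unadjusted p 0.121, adjusted p 0.919), all in edgeR's quasi-likelihood test. Between the sexes 4.5% of all genes had an unadjusted p under 0.05 in WT animals, and 0.05% were called in WT and 0.0857% in APP/PS1 animals. The WT difference of Mef2c rested on 2 animals per sex and ranged from -0.470 to -0.113 over 25 alternatives. Its unadjusted p was 0.05 or more in 7 of them. Without WT female 1, the lowest library for Mef2c, the interaction was 0.248 (unadjusted p 0.134 in the same test).

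The rise of Mef2c in females kept its direction whichever animal was left out, but its size and call rested on WT female 1. Without that animal the log2 fold change was 0.366 with an adjusted p of 0.623, where the single remaining WT female was assumed to vary like the other groups. Without WT female 2 it was 0.712 (adjusted p 0.0331). The call was also lost without APP/PS1 female 1 (0.590, adjusted p 0.113) and without APP/PS1 female 2 (0.510, adjusted p 0.123), and it remained without each of the other 8 animals, all in the quasi-likelihood test. Leaving out the 3 libraries rich in choroid plexus markers gave 0.658 (adjusted p 0.0946). For the averaged effect the call was lost without APP/PS1 female 1 or 2, WT female 1 or WT male 1 or 2, where values lay between 0.242 and 0.344 and adjusted p between 0.102 and 0.233.

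**Figure D2:**
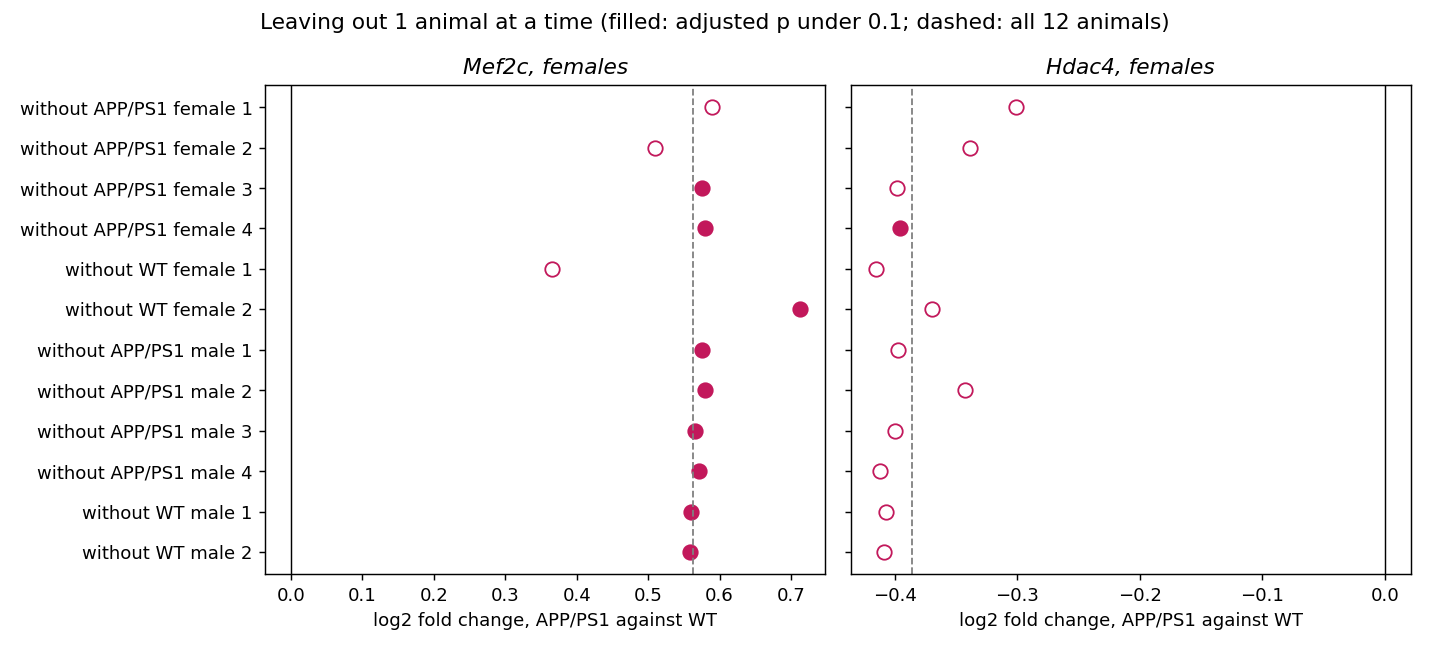
Log2 fold change in females (x axis) of Mef2c and Hdac4 after leaving out the animal named on the y axis, with filled points where the adjusted p was under 0.1 and a dashed line at the value from all 12 animals. Mef2c ranged from 0.366 without WT female 1 to 0.712 without WT female 2, and Hdac4 from -0.415 to -0.301 with 1 filled point, without APP/PS1 female 4.

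Ratios of counts within a library do not depend on its scaling. The count of Mef2c divided by that of Mef2d was 1.10, 1.17, 0.981 and 0.969 in APP/PS1 females against 0.613 and 0.800 in WT females, without overlap, and 0.769 to 1.07 in APP/PS1 males against 0.876 and 0.890 in WT males. Against Mef2a the ratio ranged from 0.855 to 1.20 in APP/PS1 females, above the 0.641 and 0.841 of WT females. In males the ratio to Mef2a overlapped, at 0.7295 to 0.9786 in APP/PS1 animals against 0.8604 and 0.9375 in WT animals. These ratios share the Mef2c counts with the test above.

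Mef2a (ENSMUSG00000030557, GRCm38 chr7:67231163-67372858, minus strand), which in brain has been tied to synapse elimination, did not pass the test in either sex. Normalized CPM were 223.2, 213.9, 206.2 and 242.6 in APP/PS1 females, 225.4 and 192.5 in WT females, 236.6, 228.8, 235.7 and 225.8 in APP/PS1 males and 225.9 and 209.1 in WT males. The genotypes overlapped in both sexes. The log2 fold change was 0.04 ± 0.067 in females, at an adjusted p of 0.898, and 0.11 ± 0.066 in males, at 0.998, in edgeR's quasi-likelihood test, and the 95% intervals reached up to 0.19 in females and 0.25 in males. It shares 302 bases of exon with Lysmd4 on the other strand (1092 to 1494 counts), and without a stated strand option the reads of both cannot be told apart there.

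Mef2d (ENSMUSG00000001419, GRCm38 chr3:88142372-88172086, plus strand), a neuronal survival factor of the family, was the steadiest member. Normalized CPM were 196.7, 219.0, 227.2 and 214.0 in APP/PS1 females, 235.8 and 202.3 in WT females, 215.6, 217.2, 228.5 and 234.4 in APP/PS1 males and 221.8 and 220.3 in WT males. Groups overlapped in both sexes. The averaged log2 fold change was 0.00 ± 0.042, with a 95% interval from -0.09 to 0.09 and an adjusted p of 0.996 in the quasi-likelihood test. Its exons share 531 bases with the antisense gene 1700113A16Rik, which had 56 to 105 counts.

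**Figure D3:**
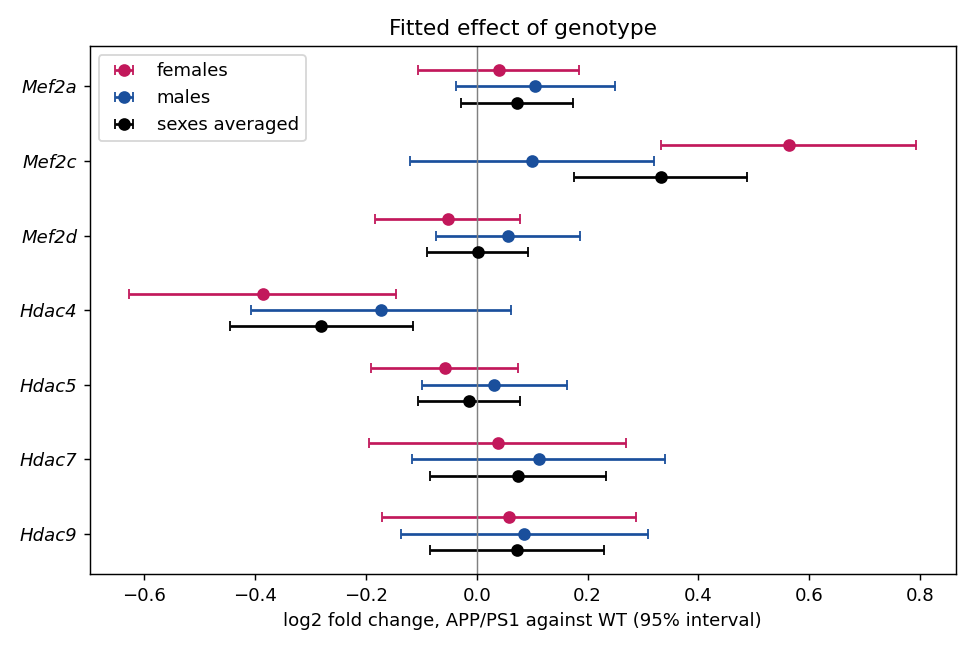
Fitted log2 fold changes of APP/PS1 against WT (x axis) with 95% intervals for the 7 genes (y axis) in females, in males and with the sexes averaged. The intervals of Mef2c (0.33 to 0.79) and Hdac4 (-0.63 to -0.15) in females exclude 0, and those of the other 5 genes include 0 in every comparison.

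Of the repressors, Hdac4 (ENSMUSG00000026313, GRCm38 chr1:91928779-92195699, minus strand), whose protein shuttles between cytoplasm and nucleus with neuronal activity, had the lowest fold change. Normalized CPM were 50.1, 55.9, 58.1 and 59.9 in APP/PS1 females and 76.1 and 71.6 in WT females. Every APP/PS1 female was below both WT females. The log2 fold change in females was -0.39 ± 0.110 (95% interval -0.63 to -0.15), with an unadjusted p of 0.00432 and an adjusted p of 0.234 in edgeR's quasi-likelihood test, so it did not pass the correction. It passed in females with edgeR's likelihood ratio test (adjusted p 0.0725, where 1.96% of genes were called), which the authors used, and with DESeq2 (adjusted p 0.0412, where 2.05% were called), at log2 fold changes of -0.387 and -0.404. In 21 of 26 alternatives Hdac4 did not pass in females.

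In males Hdac4 gave 56.4, 54.0, 54.6 and 71.4 normalized CPM in APP/PS1 animals and 60.0 and 77.5 in WT animals. APP/PS1 male 4 lay between the WT males and the other 3 APP/PS1 males lay below both. The log2 fold change was -0.17 ± 0.108 (adjusted p 0.998), and it was 0.011 without WT male 2 and -0.336 without WT male 1. The averaged value was -0.28 ± 0.076 (unadjusted p 0.00308, adjusted p 0.139 in the quasi-likelihood test). It passed with the likelihood ratio test (adjusted p 0.0344, where 2.72% of genes were called) and DESeq2 (adjusted p 0.0186, where 2.76% were), and with the quasi-likelihood test without APP/PS1 female 4 (-0.279, adjusted p 0.0298), without APP/PS1 male 4 (-0.341, adjusted p 0.0417) or without WT male 1 (-0.371, adjusted p 0.0409). It also passed with the likelihood ratio test and CPM filter (adjusted p 0.0273), with the replicate number as a block (-0.341, adjusted p 0.0793) and with that block without RUV factors (-0.396, adjusted p 0.0906). In 17 of 25 alternatives the averaged value did not pass. Adjusted p over all averaged alternatives lay between 0.0186 and 0.543. Without the 3 libraries rich in choroid plexus markers and the RUV factors the values were -0.398 in females and -0.285 averaged. WT female 1 was then the only WT female. With all 12 animals and no RUV factors they were -0.399 and -0.309. The interaction of genotype and sex was -0.21 ± 0.158 (unadjusted p 0.200, adjusted p 0.998 in the quasi-likelihood test). It rested on single animals, at -0.071 without WT male 1, -0.420 without WT male 2 (unadjusted p 0.024, adjusted p 0.820), -0.117 without APP/PS1 female 1 and -0.141 without APP/PS1 male 4. An antisense noncoding gene, Gm26720, overlaps 3536 bases of its exons and had 4 to 17 counts.

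The count of Mef2c divided by that of Hdac4 was 4.32, 4.59, 3.83 and 3.46 in APP/PS1 females and 1.90 and 2.26 in WT females. In males it was 4.10, 3.09, 3.88 and 2.87 in APP/PS1 animals and 3.24 and 2.53 in WT animals. The male genotypes overlapped, and in females the ratio restates the levels given above, since Mef2c was already above and Hdac4 already below both WT animals. In females 2 of the 7 members, Mef2c above and Hdac4 below, did not overlap between the genotypes, where 19.2% of all genes did not (12.6% above and 6.61% below), and with all animals of both sexes pooled 0 members were without overlap, against 1.45% of all genes.

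Hdac5 (ENSMUSG00000008855, GRCm38 chr11:102194432-102230166, minus strand), a neuronal deacetylase exported from the nucleus upon calcium entry, had 117.7, 123.9, 124.9 and 105.0 normalized CPM in APP/PS1 females and 126.6 and 124.3 in WT females. Male values were 121.2, 120.9, 133.6 and 135.0 in APP/PS1 and 124.4 and 128.4 in WT animals. APP/PS1 female 4 was the lowest library and the genotypes overlapped in both sexes. The log2 fold changes were -0.06 ± 0.061 in females and 0.03 ± 0.060 in males, at adjusted p of 0.826 and 0.998 in the quasi-likelihood test. Among APP/PS1 animals females were lower than males by -0.13 ± 0.048 on the log2 scale (unadjusted p 0.0189, adjusted p 0.859), where 5.32% of all genes had an unadjusted p under 0.05.

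Hdac7 (ENSMUSG00000022475, GRCm38 chr15:97792664-97844502, minus strand), best known from endothelium and lymphocytes, was the lowest member. Normalized CPM were 15.93, 16.35, 12.69 and 11.29 in APP/PS1 females, 13.15 and 17.00 in WT females, 12.52, 13.18, 12.46 and 16.39 in APP/PS1 males and 12.43 and 12.04 in WT males. All APP/PS1 males were above both WT males, the nearest by 12.46 against 12.43, and 10.8% of all genes did not overlap in males, 6.5% with APP/PS1 above. The log2 fold change was 0.11 ± 0.105 in males (adjusted p 0.998) and 0.04 ± 0.107 in females (adjusted p 0.948) in the quasi-likelihood test. Slc48a1 on the other strand, with 3179 to 5467 counts, shares 29 bases of its exons. The female value turned negative in 9 of 26 alternatives, down to -0.101 without RUV factors.

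Hdac9 (ENSMUSG00000004698, GRCm38 chr12:34047580-34917095, minus strand), which also makes a short form that binds Mef2 but lacks the deacetylase domain, had 47.9, 54.8, 46.7 and 45.5 normalized CPM in APP/PS1 females and 45.4 and 47.5 in WT females. Male values were 48.4, 43.1, 53.8 and 45.4 in APP/PS1 and 49.6 and 41.6 in WT animals. Groups overlapped in both sexes. The log2 fold changes were 0.06 ± 0.105 in females and 0.09 ± 0.103 in males, at adjusted p of 0.907 and 0.998 in the quasi-likelihood test, and gene counts do not separate its 10 annotated transcripts.

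In males 0 of the 7 members were called by the quasi-likelihood test, by the likelihood ratio test and by DESeq2, and 0 had an unadjusted p under 0.05, where 0.157% of all genes were called by the quasi-likelihood test, 0.835% by the likelihood ratio test and 0.85% by DESeq2, and 5.15% had an unadjusted p under 0.05. In females 2 members, Mef2c and Hdac4, had an unadjusted p under 0.05, against 9.54% of all genes. The median log2 fold change of the members was 0.038 in females and 0.086 in males, beside 0.015 and 0.004 over all genes tested. Scaling by TMM instead of upper quartiles put the median of all genes at 0.003 in females and -0.003 in males.

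Summed microglial markers were higher in APP/PS1 than in WT animals in both sexes. Their summed level over 8 genes was 475.6 to 641.8 normalized CPM in APP/PS1 females, 293.6 and 350.3 in WT females, 441.8 to 607.9 in APP/PS1 males and 333.2 and 347.8 in WT males. All 8 had positive fold changes in both sexes, with medians of 0.648 and 0.629 on the log2 scale. In each sex alone 0 of 8 were called, and 6 of 8 were called higher with the sexes averaged, where 1.7% of all genes were. The microglial sums of APP/PS1 females 1 to 4 were 567.5, 487.6, 641.8 and 475.6, beside Mef2c levels of 216.5, 256.8, 222.8 and 207.4 normalized CPM. The microglial sums of APP/PS1 males 1 to 4 were 607.9, 584, 441.8 and 497.7, beside Mef2c levels of 231.5, 166.9, 212.0 and 204.9 normalized CPM. APP/PS1 female 1 and APP/PS1 male 2 were rich in choroid plexus markers. The part of microglia, which also express Mef2c, in the Mef2c result was not tested. Summed neuronal markers overlapped between the genotypes, and 0 of 8 were called. Inhibitory neuron markers summed to 801.9 to 884.6 in APP/PS1 females and 893.8 and 913.1 in WT females, with 0 of 6 called. Astrocyte markers summed to 2760 to 3068 in APP/PS1 females and 2240 and 2352 in WT females. Of these 6 markers 1 was called (Gfap, the intermediate filament of astrocytes). Their median log2 fold change was 0.023 in females, with 4 of 6 positive, and -0.022 averaged, with 2 of 6 positive. In females, 0 of 4 dentate granule cell markers (median log2 fold change -0.323) and 6 of 6 endothelial markers (0.160) had positive fold changes. In males these were 3 of 4 (0.134) and 2 of 6 (-0.084), with 0 called in either list in either sex. Dentate sums overlapped in females, at 347.5 to 467.3 in APP/PS1 and 382.1 and 464.8 in WT animals. CA1 pyramidal cell markers summed to 266.3 to 299.1 in APP/PS1 males and 315.2 and 346.2 in WT males. Neocortex and subiculum markers overlapped in both sexes. Their sums were 197.3 to 228.3 in APP/PS1 females, 206.4 and 217.4 in WT females, 180.1 to 222.2 in APP/PS1 males and 216 and 275.2 in WT males. The part of these cells in the members' results was not tested.

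**Figure D4:**
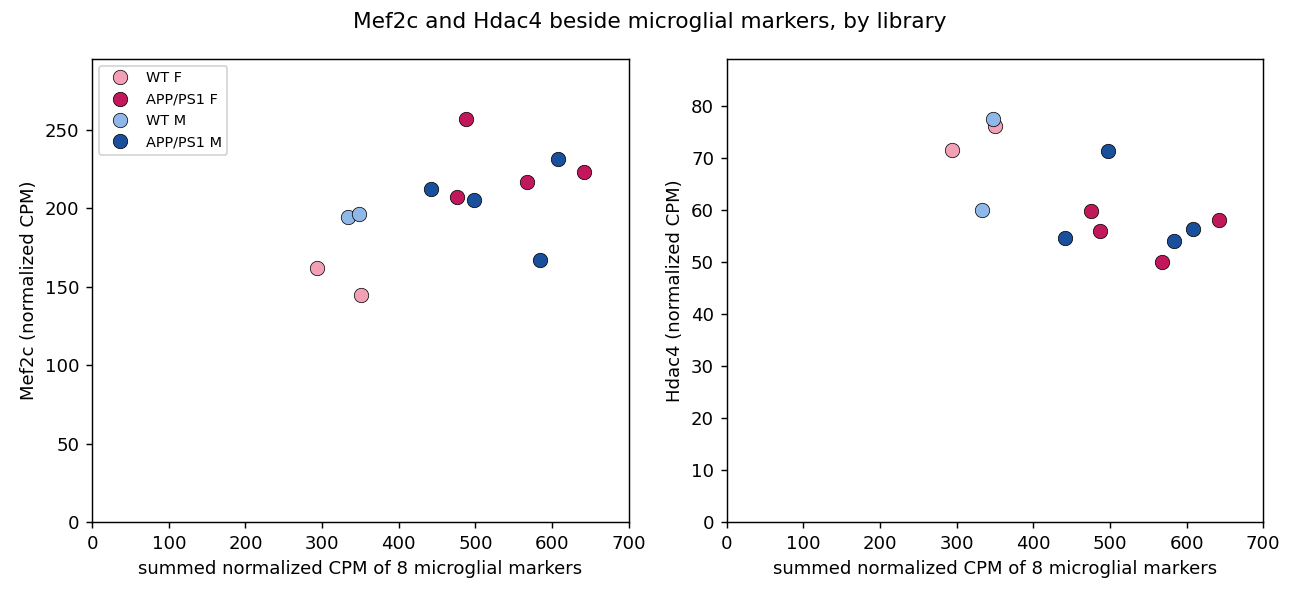
Normalized CPM of Mef2c and of Hdac4 (y axes) against the summed normalized CPM of 8 microglial markers (x axis), with 1 point per library coloured by group. The APP/PS1 libraries lie to the right at 441.8 to 641.8 in both sexes, and the WT libraries at 293.6 to 350.3, with WT females lowest for Mef2c.

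The other deacetylases, of classes I, IIb and IV, were followed beside the members. Of 7 tested in a list of 8 that also held Mef2b, 0 were called in either sex or with the sexes averaged, by the quasi-likelihood test, the likelihood ratio test and DESeq2. Median log2 fold changes were 0.020 in females and 0.083 in males. Those with the smallest averaged p were Hdac10, a class IIb enzyme that acts on polyamines (0.23 ± 0.084, unadjusted p 0.0161, adjusted p 0.350), and Hdac8, a class I enzyme (0.12 ± 0.070, adjusted p 0.631), in edgeR's quasi-likelihood test. Hdac10 was at 5.95 to 9.39 normalized CPM in APP/PS1 males and at 4.77 and 5.62 in WT males. The genotypes did not overlap in that sex, where 6.5% of all genes were without overlap with APP/PS1 above. The highest value was that of APP/PS1 male 4.

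The list of upstream regulators held 28 genes, namely calcium/calmodulin-dependent kinases, protein kinase D, salt-inducible and other kinases, calcineurin subunits and 14-3-3 proteins, and all were tested. With the sexes averaged 1 was called, lower, where 0.15% of all genes were called lower, and 0 were called higher, and in each sex 0 were called by the quasi-likelihood test (5 with an unadjusted p under 0.05 in females and 1 in males, where 9.54% and 5.15% of all genes had one). Sik3, a salt-inducible kinase that phosphorylates class IIa deacetylases, had 125.1, 136.1, 131.4 and 127.4 normalized CPM in APP/PS1 females, 156.4 and 150.6 in WT females, 126.8, 128.3, 119.5 and 147.0 in APP/PS1 males and 140.5 and 155.1 in WT males. The female genotypes did not overlap, where 6.61% of all genes were without overlap with APP/PS1 below. The male genotypes overlapped, with APP/PS1 male 4 between the WT males and the rest of its group below both. Sik3 fell by 0.19 on the log2 scale (SE 0.047) with an adjusted p of 0.0865 in the quasi-likelihood test, and the call was lost in 16 of 25 alternatives (adjusted p between 0.0105 and 0.489), while the value stayed between -0.223 and -0.165. Of the 12 animals, leaving out any but APP/PS1 female 4, APP/PS1 male 4 or WT male 1 ended the call (adjusted p 0.112 to 0.359). Camk4, a nuclear calcium-dependent kinase that frees Mef2 from deacetylases, had an averaged log2 fold change of 0.12 ± 0.050 (adjusted p 0.489).

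Camk2d, the delta subunit of calcium/calmodulin-dependent kinase II, is named after its values were seen because its female fold change was the highest of the list. Normalized CPM were 77.7, 87.2, 86.5 and 63.8 in APP/PS1 females and 41.3 and 63.4 in WT females. The APP/PS1 females were all above the WT females, the nearest by 63.79 against 63.39, as in 12.6% of all genes. The log2 fold change was 0.65 ± 0.211 (unadjusted p 0.0146, adjusted p 0.370 in the quasi-likelihood test). Camk2d was called in females without WT female 2 (1.06, adjusted p 0.0221) or without the 3 libraries rich in choroid plexus markers (0.933, adjusted p 0.0946), and without WT female 1 its value was 0.204 (adjusted p 0.983). In males it was -0.05 ± 0.197, and WT female 1 was the lowest library for this gene as for Mef2c.

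Cofactors that bridge Mef2 and the deacetylases to other chromatin enzymes followed as a list of 12, all tested. By the quasi-likelihood test, the likelihood ratio test and DESeq2 0 were called in females or with the sexes averaged, and 1 in females and 0 averaged had an unadjusted p under 0.05, against 9.54% and 9.47% of all genes. The median log2 fold change was -0.060 in females and -0.009 in males. Ep300, an acetyltransferase that coactivates Mef2, had an averaged value of -0.08 ± 0.048 (adjusted p 0.640) in edgeR's quasi-likelihood test.

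Of 13 genes known as neuronal Mef2 targets, all tested, 0 were called in either sex or averaged by the quasi-likelihood test, with 4 in females, 1 in males and 3 averaged at an unadjusted p under 0.05 (9.54%, 5.15% and 9.47% of all genes). The median log2 fold change was -0.015 in females and 0.031 in males, beside 0.015 and 0.004 over all genes. Klf6, a zinc finger factor that supports neurite growth, had the smallest averaged p, with 39.8, 41.5, 37.9 and 37.3 normalized CPM in APP/PS1 females and 31.1 and 32.5 in WT females. The female genotypes did not overlap, where 12.6% of all genes were without overlap with APP/PS1 above. Male values were 49.9, 41.6, 43.1 and 39.0 in APP/PS1 against 39.9 and 37.7 in WT animals. Its averaged log2 fold change was 0.23 ± 0.067 (unadjusted p 0.00473, adjusted p 0.187), and it passed the threshold with the likelihood ratio test, with DESeq2 and without APP/PS1 male 4. Homer1, a scaffold of the postsynaptic density, had an averaged value of -0.14 ± 0.061 (adjusted p 0.464) and -0.28 ± 0.087 in males (adjusted p 0.547), in edgeR's quasi-likelihood test. In females 5 of the 13 target genes had a positive fold change, and a link to the level of Mef2c was not tested.

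**Figure D5:**
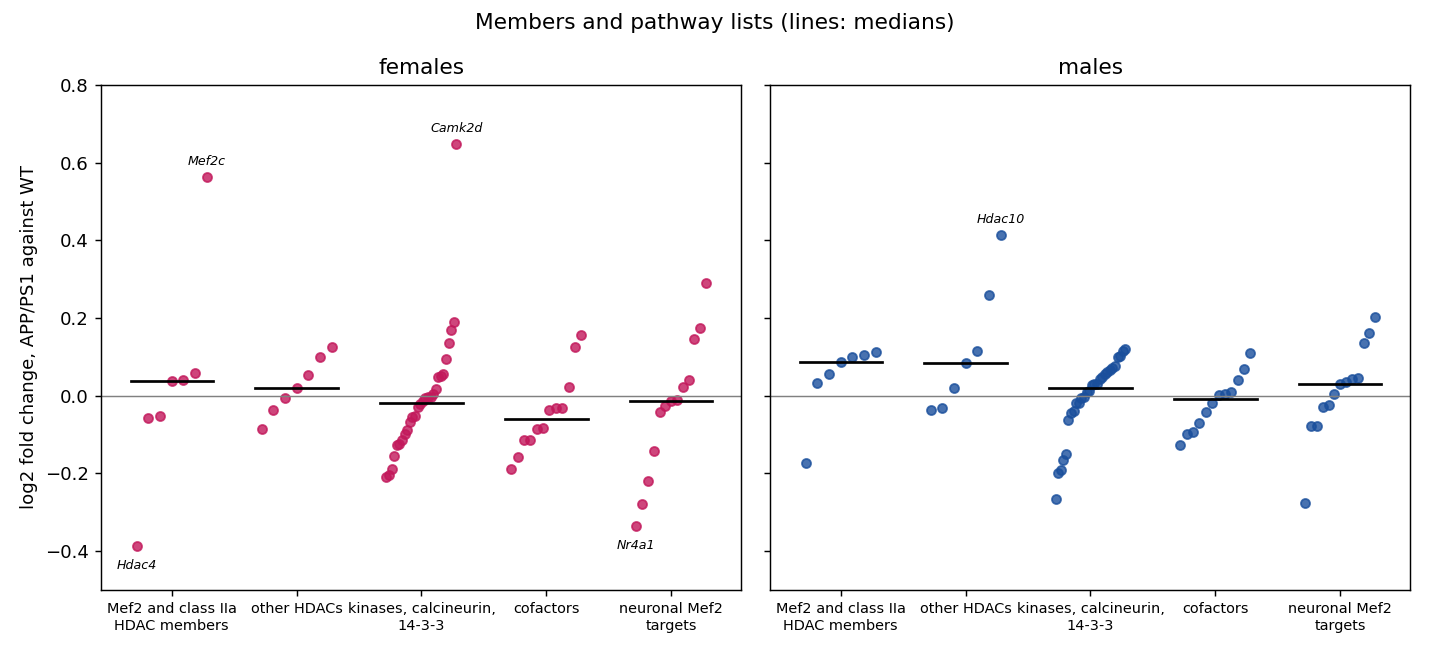
Log2 fold changes of APP/PS1 against WT (y axis) in females and in males for the 7 members and the genes of the 4 lists (x axis), with 1 point per gene, a line at each median and symbols beside points beyond 0.3. In females Mef2c at 0.56 and Camk2d at 0.65 are above, and Hdac4 at -0.39 is below, most genes of their lists.

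Genes with the pattern most like each member were found by Pearson's r of log2 normalized CPM over 12 libraries, which share depth, tissue composition and the genotype difference, so these are descriptions. For Mef2c they were Plcxd2 (0.944), Bmp3 (0.933) and Asap1 (0.932), which without the 3 libraries rich in choroid plexus markers had r of 0.918, 0.941 and 0.930. For Hdac4 they were Btbd2 (0.963), Brap (0.953) and Dnajc16 (0.925). Mef2a was most like Gm49521 (0.946), Gm43361 (0.946) and Tcf4 (0.934), and Mef2d like Gprin1 (0.909), Dlgap2 (0.892) and C2cd2l (0.884). Hdac5 was most like Surf6 (0.938), Ccdc8 (0.907) and Kifc2 (0.894), Hdac7 like Mfsd10 (0.973), Zfp692 (0.961) and AI480526 (0.961), and Hdac9 like Zeb1 (0.879), Ilf2 (0.836) and AC121821.1 (0.797). Of the members, Mef2d had the lowest r when those 3 libraries were left out, with r of 0.736 to 0.799 for its 3 genes.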

How the data were processed

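Directional mRNA libraries of 12 hippocampi were trimmed with Trimmomatic, aligned to GRCm38 with STAR and counted per gene with HTSeq by the authors, who deposited raw counts per gene; versions, annotation and strand option were not given in the sources used here. Symbols and positions came from GENCODE M21, which matched 55480 of 55573 identifiers. Counts were scaled by upper quartiles and tested over 14008 genes in 1 model of 4 groups with 2 RUVg factors (re-implemented; all but the top 5000 genes of a first-pass test as controls) by edgeR's two-sided quasi-likelihood test (edgeR 4.0.16, R 4.3.3), Benjamini-Hochberg adjusted, with calls at an adjusted p under 0.1. The likelihood ratio test, DESeq2 1.42.0 and other settings were alternatives. Steps were tested on simulated data. Members and lists were chosen with earlier results of these data known. The named genes were all members, genes called in a list, the 2 of each list with the smallest averaged p, and the 3 genes most alike to each member, of which 1 list gene is not reported here. Of the marker lists, dentate granule cells, CA1 pyramidal cells, neocortex and subiculum, oligodendrocytes, endothelium and choroid plexus had 0, 1, 1, 0, 0 and 0 genes called with the sexes averaged. The genes called in the CA1 list and in the neocortex and subiculum list were lower in APP/PS1 animals. Replicates were animals, and all 14 pairs of libraries within groups differed by more than sampling noise (chi-square per degree of freedom 15.5 to 73.0), so at this depth the 2 WT animals per sex limit precision more than counting does.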

Additional observations from a re-analysis of the deposited data

Results flagged for a closer look

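Mef2c in females and males was singled out because its genotype effect differed between the sexes by 0.463 on the log2 scale (unadjusted p 0.00838, adjusted p 0.998 in edgeR's quasi-likelihood test), with the adjusted value not past the threshold. The unadjusted p was 0.05 or more in 1 of 25 alternatives, without WT female 1 (p 0.134), and the difference ranged from 0.248 to 0.602 over all of them.

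Hdac4 in APP/PS1 males was singled out because 1 animal stood far from the other 3. APP/PS1 male 4 was at 71.4 normalized CPM and the others at 54.0 to 56.4, so its gap to the nearest was 0.863 of the range, above the critical value of 0.829 for 4 animals. Groups of 4 were tested for each member, 14 in all, and chance flags about 1 in 20 groups. The same animal had the lowest value of the second RUV factor (-0.453), the highest Sik3 level among APP/PS1 animals (147.0) and the highest Hdac7 level among APP/PS1 males (16.39).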

How the results depend on the processing

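Members called in females (1) became 2 with the likelihood ratio test, 2 with DESeq2 and 2 with the likelihood ratio test and CPM filter, and 0 to 2 when 1 animal was left out. Members called with the sexes averaged (1) became 2 under the same 3 settings, 0 without RUV factors, 0 at an adjusted p under 0.05, and 0 to 2 when 1 animal was left out. Regulators called averaged (1) became 0 without RUV factors, with 1 RUV factor and at an adjusted p under 0.05. They became 0 with a score of choroid plexus genes replacing the RUV factors, and 0 to 1 when 1 APP/PS1 animal was left out. In females the regulators called (0) changed only in fits that left WT female 1 as the only WT female. Targets called averaged (0) became 1 (Klf6) with the likelihood ratio test, DESeq2 and the likelihood ratio test with CPM filter, and 0 to 1 when 1 animal was left out. Counts called in males, of cofactors and of other deacetylases were 0 in every setting run.

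Deviations from group means in same-numbered libraries correlated at r from -0.643 to 0.697, and both extremes involved libraries rich in choroid plexus markers. The 2 WT animals of a sex deviate as mirror images. These values therefore cannot settle whether replicate numbers pair the animals. With the replicate block 1 member was called in females, Hdac4 (-0.446, adjusted p 0.0987) in place of Mef2c (0.601, adjusted p 0.103), and 1 averaged, again Hdac4 (-0.341, adjusted p 0.0793) in place of Mef2c (0.388, adjusted p 0.12), and 0 regulators and 1 target were called averaged. With the replicate block without RUV factors 0 members were called in females, 1 averaged (Hdac4, -0.396, adjusted p 0.0906, with Mef2c at an adjusted p of 0.303), and 0 regulators averaged.

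Fits without the 3 choroid plexus-rich libraries also had no RUV factors. The values that changed sign were not called in the quasi-likelihood test of all 12 animals. These were Mef2a in females (-0.035 without the 3 choroid plexus-rich libraries), Mef2d in males (-0.028, block without RUV factors), Hdac5 in males (-0.003 without the expression filter, -0.005 with the block without RUV factors) and the Hdac9 interaction (0.004 without RUV factors, 0.005 with the block without them). Mef2d averaged was -0.011 with DESeq2, -0.008 with TMM, -0.012 without the filter, -0.007 without RUV factors, -0.002 with 1 factor, -0.015 with the block, -0.053 with the block without RUV factors, -2e-06 with the choroid plexus score and -0.033 without the 3 libraries. Hdac7 in females was -0.016 without the filter, -0.101 without RUV factors, -0.060 with 1 factor, -0.035 with the block without RUV factors, -0.101 with each sex alone and -0.061 with the choroid plexus score. When 1 animal was left out, values ran from -0.057 to 0.153 (Mef2a, females), -0.157 to 0.058 (Mef2a, interaction), -0.116 to 0.021 (Mef2d, females), -0.036 to 0.034 (Mef2d, averaged), -0.336 to 0.011 (Hdac4, males), -0.027 to 0.002 (Hdac5, averaged), -0.082 to 0.152 (Hdac7, females), -0.200 to 0.047 (Hdac7, interaction), -0.041 to 0.125 (Hdac9, females), -0.044 to 0.232 (Hdac9, males) and -0.161 to 0.114 (Hdac9, interaction). The cause was not tested.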
